A study of Mus musculus with 4 samples.

Results

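The translation initiation factors are the proteins that bring a ribosome and its first tRNA to the start codon of an mRNA. They were taken as every gene whose array name begins with Eif1 to Eif6, leaving out the Argonaute genes (Eif2c names), the interferon-induced kinase Eif2ak2 and the sex-chromosome pair Eif2s3x and Eif2s3y. Of 56 matching names, 7 were left out and 49 genes remained of 28512 on the array, read by 103 probes. Each gene is represented by its brightest probe, and 48 of the 49 passed the filter for signal above background, against 16785 of all genes.

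The samples were bone marrow cells of male C57BL/6 mice, cultured for 4 days in GM-CSF, a growth factor for granulocytes and macrophages, at 40 ng/ml, after which the expanding immature granulocytes were sorted. One group was wild type and the other lacked miR-223, a myeloid microRNA, with 2 arrays per genotype. The age of the mice, the knockout allele and the sort markers were not given in the sources used here, nor whether the replicates came from separate animals, so that p-values measure only the spread between these samples. The deletion itself was not checked on these arrays.

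The lost microRNA has a mature strand from each arm of its hairpin, shown here with the seed, the bases that pair with target mRNAs, in capitals (bases 2 to 8, 5′ to 3′). The sequences are RefSeq's, from assembly GRCm38.p6, and lie on the plus strand at chrX:96242884-96242905 and chrX:96242842-96242864.
mmu-miR-223-3p: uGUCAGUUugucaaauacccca
mmu-miR-223-5p: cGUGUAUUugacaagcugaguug
Sites for these seeds in the initiation factor mRNAs were not analysed here.

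Initiation starts when eIF2, loaded with GTP, carries the initiator tRNA to the small ribosomal subunit, where eIF1, eIF1A, eIF3 and eIF5 assemble. eIF4F binds the mRNA cap, eIF4A unwinds the leader, and the complex scans to the start codon, where eIF5B joins the large subunit. The pathway is held back at 2 known points: kinases that phosphorylate eIF2 and so block its exchange factor eIF2B, and 4E-binding proteins that keep the cap-binding protein eIF4E from eIF4G.

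Levels are log2 intensities relative to the 75th percentile of their own array, so that a level of 0 is that percentile, and differences are knockout minus wild type with limma's standard error (n = 2 arrays per genotype). The initiation factor probes were bright, which bears on their precision and not on the amount of one mRNA against another. Of the 48 tested genes, 37 fell in the top class when all tested genes were cut into 4 equal classes by mean signal, 9 in the next, 2 in the one below and 0 in the dimmest. No probe used was saturated on any array.

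The initiation machinery differed little between the genotypes. At a limma adjusted p of 0.05, 0 of the 48 were called (smallest 0.305), and at an unadjusted p under 0.05 there were 2, Eif1a on the lower side and Eif4b on the higher. Over all 16785 genes the same test made 0 calls (0% called, smallest adjusted p 0.0592), with 2275 genes, 13.6%, under an unadjusted p of 0.05, of which 8.03% of all genes were higher in the knockout and 5.52% lower. Fits that leave out 1 array rest on a lone array in a genotype, and their counts of calls are not compared here.

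The differences ran from -0.50 for Eif1a to 0.42 for Eif4b. Their median size regardless of sign was 0.0952, against 0.184 for all tested genes and 0.127 for the top signal class of them. In 25 genes the difference was under 0.1 on the log2 scale, in 12 between 0.1 and 0.2, in 8 between 0.2 and 0.3, and in 3 (Eif1a, Eif4b and Eif4e3) above 0.3. The share under 0.3 was 93.8%, against 68.3% of all tested genes, most of which were dimmer. In the top signal class the difference was under 0.5 for 37 of 37 initiation factors and for 3984 of 4196 genes. Over all tested genes it was under 0.5 for 14201 of 16785. The shares under 0.3 and within a 2-fold interval were not split by signal class. The 95% interval of the difference lay within a 2-fold change either way for all 48 tested genes, the widest bounds being -0.945 (Eif4a2) and 0.792 (Eif4b), and for 78.8% of all tested genes. With 1 array left out, 42 to 48 initiation factors had such an interval.

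**Figure D1:**
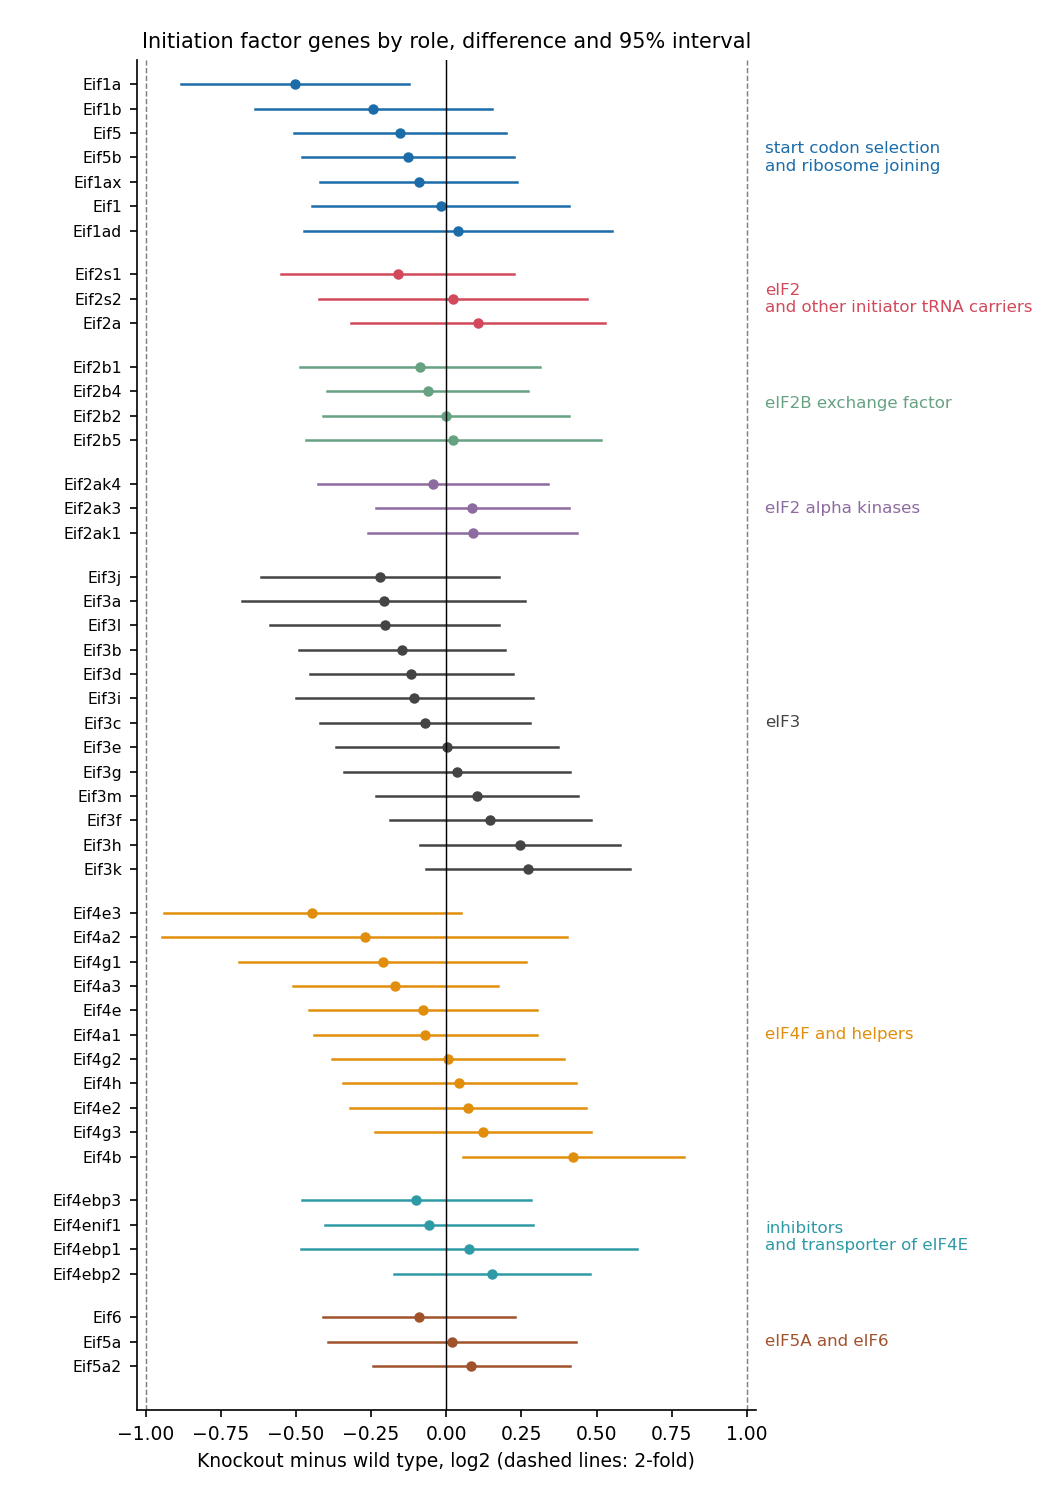
Knockout minus wild-type difference in log2 level for the 48 tested initiation factors, in role groups, with points for limma's estimate and bars for its 95% interval (n = 2 arrays per genotype). The intervals lie within a 2-fold change either way, and those of Eif1a and Eif4b leave out 0.

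In direction the genes were mixed. In the knockout 21 were higher and 27 lower, where 54.8% of all tested genes were higher, and the median difference was -0.05 against 0.03 for all tested genes. This split moved with the scaling, to 8 higher and 40 lower when arrays were scaled on spike-in controls, to 15 and 33 with quantile normalization, to 24 and 24 with normexp background correction, and to 16 and 32 with both. Without knockout replicate 2 it was 27 higher and 21 lower, with a median of 0.0158. In 9 genes, or 18.75%, the lower knockout array exceeded the higher wild-type array, and 28% of all tested genes did so (48.1% were apart in either direction). In 12 genes, or 25%, both knockout values were the lowest, and 20.1% of all tested genes did so. For the other 27 the arrays of the genotypes overlapped. In the top signal class 15 of the 37 initiation factors were higher in the knockout, or 40.54%, against 58.77% of the class. Of these 37, 16.22% were above and 27.03% below, against 32.17% and 16.33% of the class. On spike-in scaling 3 of the 48 initiation factors were above and 20 below, where 16.7% and 28.2% of all tested genes were. With 1 array left out the counts moved. Without wild-type replicate 1, 16 of 48 were above, where 43.5% of all tested genes were. Without wild-type replicate 2, 14 of 49 were above and 24 below, where 40.4% and 37.2% of all tested genes were. Without knockout replicate 1, 25 of 49 were below, where 31.9% of all tested genes were. Without knockout replicate 2, 19 of 48 were above, where 41.5% of all tested genes were. Leaving out any 1 array also raised the background, to between 39.1% and 43.5% above and between 27.1% and 37.2% below.

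**Figure D2:**
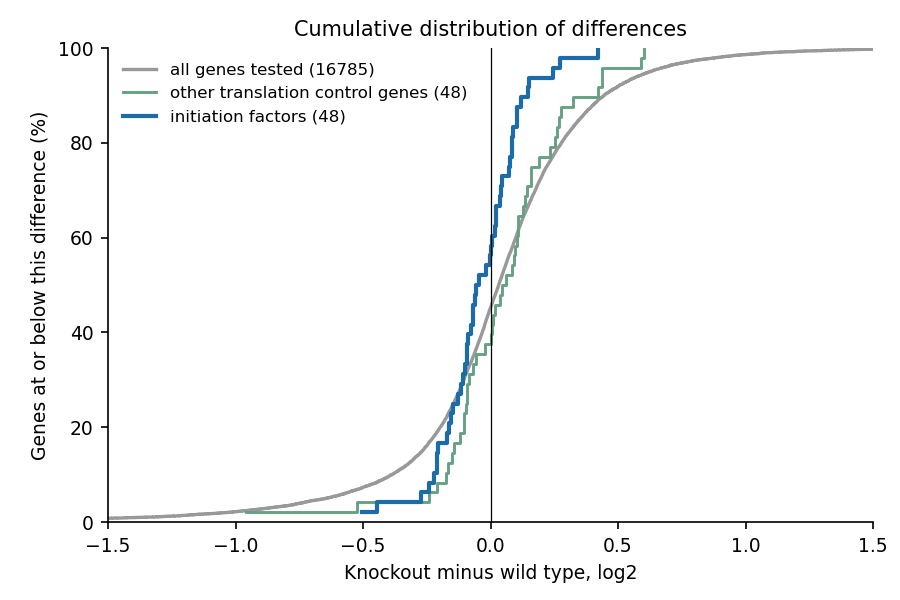
Cumulative share of genes (vertical axis) by the log2 difference, knockout minus wild type (horizontal axis). Curves are for the 48 tested initiation factors, 48 other translation control genes read further below and all 16785 tested genes. Their median differences are -0.05, 0.05 and 0.03.

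The factors that choose the start codon and join the subunits held the gene with the smallest p. Eif1a encodes an eIF1A, which with eIF1 keeps the scanning ribosome open. Its probe, at chr18:46768519-46768578 (mm9, plus strand), read 2.21 and 2.39 in wild type and 1.87 and 1.72 in the knockout. Both knockout arrays were below both wild-type arrays, by a gap larger than the spread within either genotype. The difference was -0.50 ± 0.14 (SE, n = 2 per genotype, 95% interval -0.88 to -0.12, limma adjusted p = 0.305), equal to a fold of 1.42 lower, and a second probe gave -0.29.

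Eif1b, a close relative of eIF1, read 3.43 and 3.63 in wild type and 3.20 and 3.37 in the knockout, a difference of -0.24 ± 0.15 (limma adjusted p = 0.528). Its genotypes did not overlap, but by only 0.058. Eif5, which makes eIF2 hydrolyse its GTP at the start codon, read 4.48 and 4.31 in wild type and 4.24 and 4.24 in the knockout, a difference of -0.15 ± 0.13 (limma adjusted p = 0.644). Eif5b, the subunit-joining GTPase, read 3.44 and 3.57 against 3.43 and 3.32, a difference of -0.13 ± 0.13 (limma adjusted p = 0.704), the higher knockout array lying just under the lower wild-type array. Eif1 and Eif1ad overlapped between genotypes, at -0.02 and 0.04, and Eif1ax, the X-linked copy of eIF1A, was at -0.09. Of the 7 genes, 6 had lower means in the knockout (5 to 7 over the alternatives tried) and 5 lay below without overlap, where 20.1% of all tested genes did so. Their median difference was -0.13, and 0 passed the test.

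eIF2 and its exchange factor overlapped between the genotypes in every tested gene. Eif2s1, the alpha subunit whose phosphorylation slows initiation, read 3.07 and 2.88 in wild type and 2.89 and 2.73 in the knockout, a difference of -0.16 ± 0.14 (limma adjusted p = 0.659). Eif2s2, the beta subunit, read 4.70 and 4.39 against 4.64 and 4.48, and Eif2a, a separate factor that can also bring initiator tRNA, read 1.029 and 0.936 against 1.236 and 0.939. Both lay within the spread between arrays, at 0.02 ± 0.17 and 0.11 ± 0.16.

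Among the eIF2B subunits, Eif2b1 read 2.57 and 2.35 in wild type and 2.45 and 2.29 in the knockout, at -0.09 ± 0.15. Eif2b4 read 3.55 and 3.50 against 3.52 and 3.41, at -0.06 ± 0.13, and Eif2b5, the catalytic subunit, 1.91 and 1.49 against 1.72 and 1.72, at 0.02 ± 0.18. Eif2b2 read 4.63 and 4.83 against 4.84 and 4.63, the smallest difference of all members at -0.00 ± 0.15. Eif2b3 was the member that was not tested: its probe was well above background on 1 of 2 arrays of each genotype, with levels of -6.04 and -7.71 in wild type and -7.79 and -6.19 in the knockout, and no fold is given.

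The 3 kinases that phosphorylate eIF2 respond to haem shortage (Eif2ak1), endoplasmic reticulum stress (Eif2ak3) and amino acid shortage (Eif2ak4). Eif2ak3 read 0.66 and 0.68 in wild type and 0.73 and 0.78 in the knockout, at 0.09 ± 0.12 (limma adjusted p = 0.781). Its knockout arrays were both above the wild-type arrays, by 0.049. Eif2ak1 read 0.08 and 0.22 against 0.19 and 0.28, at 0.09 ± 0.13, and Eif2ak4 read -0.24 and -0.25 against -0.17 and -0.41, at -0.04 ± 0.14, both overlapping.

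eIF3, the largest initiation factor, ties the small subunit to the mRNA and to eIF4G. Its 13 genes split 6 higher and 7 lower in the knockout (4 to 7 higher over the alternatives tried), 4 above (30.77%), 4 below (30.77%) and 5 overlapping, where 28% of all tested genes were above and 20.1% below. They spanned -0.22 to 0.27 with a median of -0.07, and 0 passed the test. Eif3k read 3.33 and 3.47 in wild type and 3.69 and 3.66 in the knockout, a difference of 0.27 ± 0.13 (limma adjusted p = 0.438). Eif3h, an MPN-domain subunit, read 6.306 and 6.195 against 6.49 and 6.50, a difference of 0.25 ± 0.12 (limma adjusted p = 0.460). In both, the knockout arrays lay close together and above the wild-type arrays.

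Other eIF3 genes ran the opposite way. Eif3j, a loosely bound subunit, read 3.52 and 3.43 in wild type and 3.38 and 3.13 in the knockout, at -0.22 ± 0.15 (limma adjusted p = 0.563), and its other probes gave -0.31 and -0.54. RefSeq lists this gene as Eif3j1, and reads from its close copy Eif3j2 could share its probes. Eif3l read 5.87 and 6.08 against 5.82 and 5.71, at -0.20 ± 0.14 (limma adjusted p = 0.575), with the genotypes 0.045 apart. Eif3a, the scaffold subunit, read 3.89 and 3.51 against 3.47 and 3.51, at -0.21 ± 0.18 (limma adjusted p = 0.641). On this probe, named by the array file alone, wild-type replicate 1 stood above the other 3 arrays, which lay close together. A RefSeq-matched probe of Eif3a read 2.90 and 3.09 in wild type and 2.90 and 2.73 in the knockout, at -0.18. A further, far dimmer probe gave 0.06.

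eIF4F and its helpers held the other members with sizeable differences. Eif4b, an RNA-binding protein that stimulates the eIF4A helicase, read 1.73 and 1.76 in wild type and 2.27 and 2.06 in the knockout. Both knockout arrays were above both wild-type arrays by a gap of 0.305. The difference was 0.42 ± 0.14 (SE, n = 2 per genotype, 95% interval 0.05 to 0.79, limma adjusted p = 0.333), equal to a fold of 1.34 higher, and the gene's other probes gave 0.31 and 0.22.

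Eif4e3, a relative of the cap-binding protein, read -0.17 and 0.19 in wild type and -0.55 and -0.32 in the knockout. The genotypes did not overlap, though the wild-type arrays were themselves well apart, and the difference was -0.44 ± 0.18 (limma adjusted p = 0.398), equal to a fold of 1.36 lower. A second probe gave -0.42. Eif4e itself was at -0.08 ± 0.14 and Eif4e2 at 0.07 ± 0.15, with overlapping arrays. The difference between these relatives was not tested.

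Eif4a3, a helicase of the exon junction complex named with the family, read 3.05 and 2.92 in wild type and 2.83 and 2.80 in the knockout, at -0.17 ± 0.13 (limma adjusted p = 0.60) and without overlap. The scaffold Eif4g1 read 3.56 and 3.18 against 3.21 and 3.10, at -0.21 ± 0.18 (limma adjusted p = 0.641), with overlap. Eif4a2, a copy of the eIF4A helicase, had the largest wild-type spread of the 48 tested members, at 3.31 and 3.97, with 3.34 and 3.40 in the knockout. Its difference of -0.27 ± 0.25 became 0.06 without wild-type replicate 2. Of the 11 genes of this group, 5 were higher and 6 lower, 2 lay above (18.18%), 2 below (18.18%) and 7 overlapped, with a median of -0.07 and 0 past the test. Over all tested genes the shares were 28% and 20.1%.

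**Figure D3:**
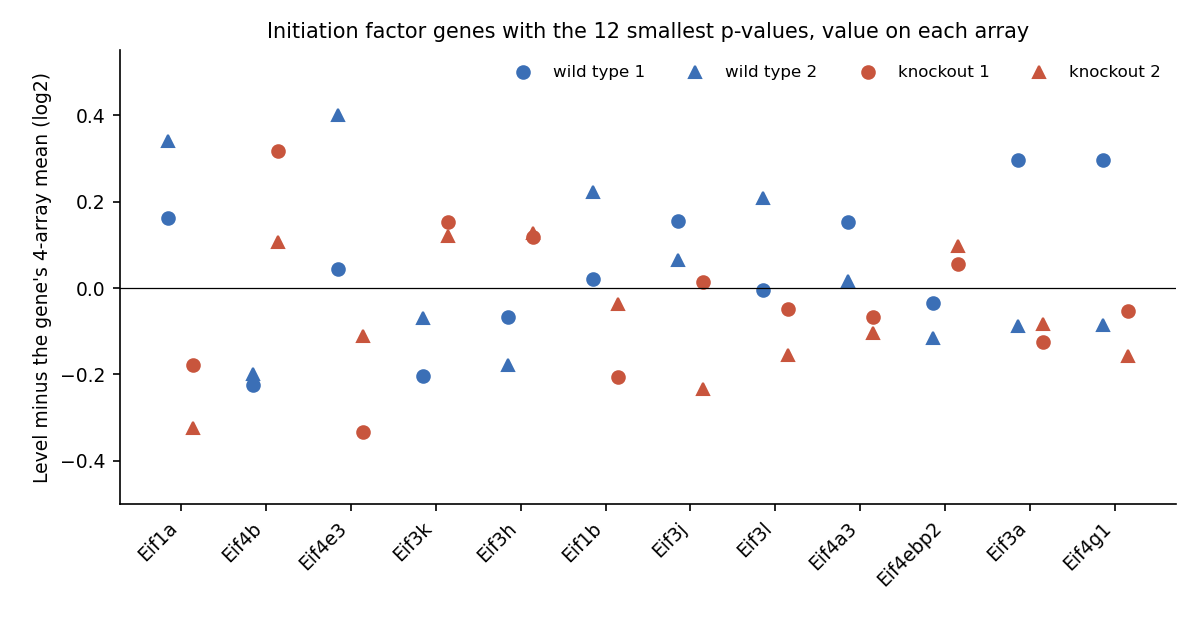
Log2 level on each array minus the gene's mean over all arrays (vertical axis), for the 12 initiation factors with the smallest p. Each gene has 1 point per array, with the 2 genotypes side by side. Eif1a and Eif4e3 show both knockout arrays lower, Eif4b, Eif3k and Eif3h both higher, and Eif3a and Eif4g1 overlap.

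Of the proteins that hold eIF4E, Eif4ebp2 read 3.58 and 3.50 in wild type and 3.67 and 3.71 in the knockout, at 0.15 ± 0.12 (limma adjusted p = 0.624), with both knockout arrays higher. Eif4ebp3 read 1.55 and 1.47 against 1.30 and 1.52, at -0.10 ± 0.14. Eif4ebp1, the best known of these mTORC1 substrates, read 3.61 and 4.11 against 4.00 and 3.87, at 0.08 ± 0.21, both knockout arrays falling between the wild-type arrays. Eif4enif1, which carries eIF4E into the nucleus, read 0.81 and 0.90 against 0.86 and 0.74, at -0.06 ± 0.13.

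The last group acts mostly outside initiation proper. Eif6, which keeps the large subunit from joining early, read 4.48 and 4.46 in wild type and 4.395 and 4.357 in the knockout, at -0.09 ± 0.12 (limma adjusted p = 0.766), with both knockout arrays lower by 0.061. Eif5a, which helps ribosomes through difficult peptide bonds, read 6.75 and 6.52 against 6.74 and 6.56, at 0.02 ± 0.15. Its relative Eif5a2 read -1.81 and -1.81 against -1.77 and -1.68, at 0.08 ± 0.12.

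Different probes of a gene differed on the scale of the differences themselves. Among 34 genes with several probes that passed the filter, all probes had the same sign in 19 and both signs occurred in 15. The median range between probes was 0.165, larger than the median size of the members' differences, 0.0952. The range exceeded 0.5 in 4 genes (Eif4enif1, Eif5b, Eif1ax and Eif3d) and 1 in 0 genes. For Eif4enif1, Eif1ax and Eif3d the probe farthest from the rest, at 0.53, 0.49 and 0.42, was named by the array file alone, with no RefSeq match. Eif5b had 4 probes between -0.30 and -0.13 and a further RefSeq-matched probe at 0.38.

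**Figure D4:**
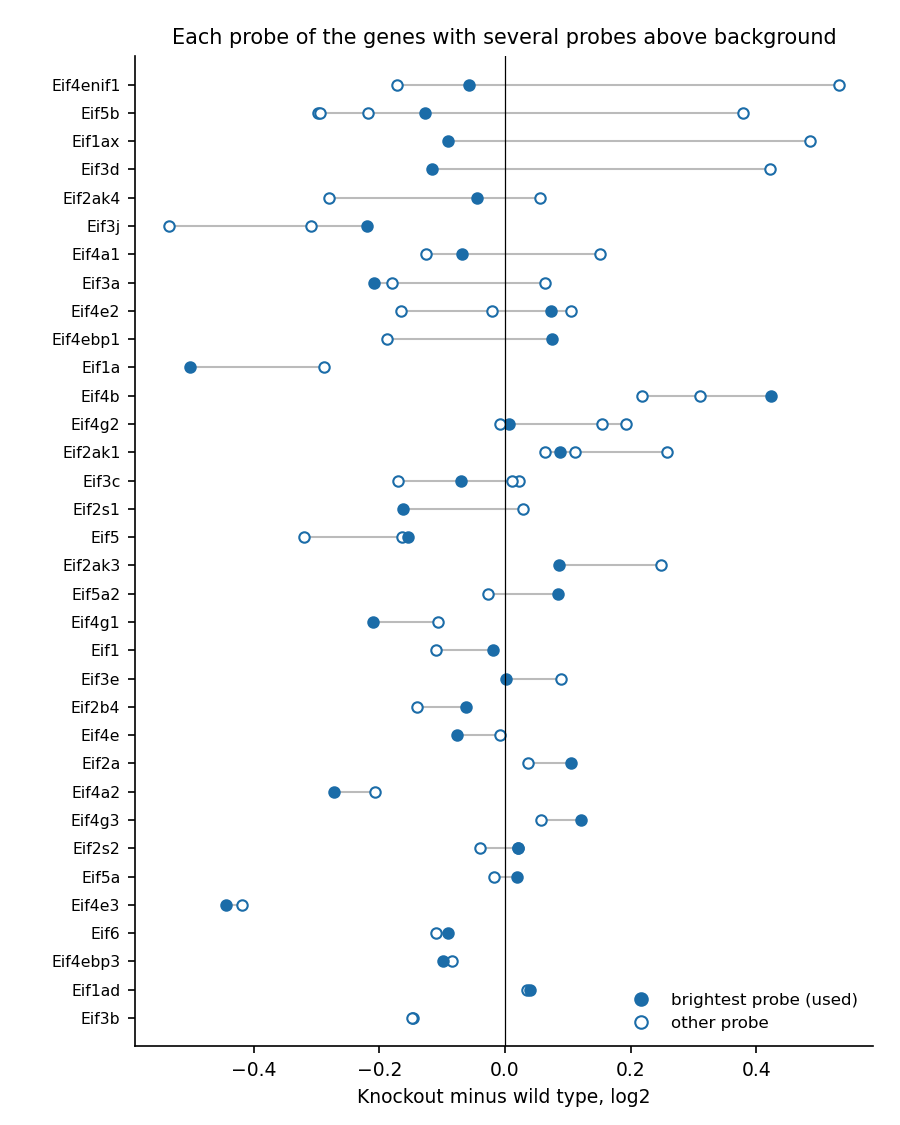
Log2 difference between genotypes for every passing probe of the 34 initiation factors with several probes, with 1 row per gene and the brightest probe, used for the gene, marked. The median range is 0.165, and Eif4enif1, Eif5b, Eif1ax and Eif3d are the widest.

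The genes around initiation were read from 5 further lists of 49 genes, of which 48 were tested. In the knockout 30 were higher and 18 lower, with a median difference of 0.05. Both knockout arrays lay above for 16 (33.33%) and below for 7 (14.58%), where 28% and 20.1% of all tested genes did so. At the adjusted threshold 0 passed (smallest limma adjusted p 0.256), and 4 had an unadjusted p under 0.05, as did 13.6% of all tested genes. Without knockout replicate 2 the count above was 26, where 41.5% of all tested genes were above. Without single arrays the count below was 12 to 15, where 27.1% to 37.2% of all tested genes were below. On spike-in scaling the median was -0.0449, with 6 above and 13 below, where 16.7% and 28.2% of all tested genes were.

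The integrated stress response, which follows phosphorylation of eIF2, had 7 of 11 tested genes higher (6 to 8 over the alternatives tried), with 5 above, 0 below and a median of 0.16, where 28% of all tested genes were above and 20.1% below. Nupr1, a stress-induced nuclear protein, read 2.13 and 2.56 in wild type and 2.91 and 2.97 in the knockout, at 0.59 ± 0.19 (limma adjusted p = 0.328). Atf5, a transcription factor of the response, was at 0.42 and Ddit4, an inhibitor of mTORC1, at 0.44. Atf4, the central transcription factor, was at -0.17. Ppp1r15a, which guides a phosphatase to eIF2, had the largest difference of the list, at -0.96 ± 0.54 (limma adjusted p = 0.498), with levels of -0.17 and 0.95 in wild type and -1.11 and -0.02 in the knockout that overlapped.

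Of 16 genes of mTORC1 and cap-binding control, 10 were higher and 6 lower. Deptor, an mTOR-binding inhibitor, was at -0.52 (limma adjusted p = 0.360), the ribosomal protein kinase Rps6kb2 at 0.44, and Rheb, the GTPase that activates mTORC1, at -0.21. Of 10 poly(A)-binding proteins and initiation helpers, 6 were higher and 4 lower. Paip2, which holds the poly(A)-binding protein, was at 0.32, the ribosome recycling factor Abce1 at -0.15 and the helicase Dhx29 at 0.16.

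Elongation factors had 7 of 8 genes higher, but 4 of 8 on spike-in scaling, with a median of 0.10. Eef1a1, which brings aminoacyl-tRNA to the ribosome and has near-identical copies in the genome, read 7.28 and 7.34 in wild type and 7.88 and 7.95 in the knockout. Its difference of 0.60 ± 0.12 had the smallest p of the lists (limma adjusted p = 0.256), and the arrays of each genotype lay close together. Eefsec, the selenocysteine factor, was at -0.24 and Eef1b2, an exchange factor for eEF1A, at 0.23. The 3 termination factors Etf1, Gspt1 and Gspt2 were at -0.14, -0.12 and -0.09.

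Markers of the sorted cells were present: all 13 granulocyte markers on the array were well above background on every array, with a summed level, as a multiple of the 75th percentile, of 3796 to 4021 in wild type and 4153 to 4599 in the knockout. Of these 13, 11 were higher in the knockout and 2 lower (median 0.15), from Mpo at -0.43 to Lcn2 at 0.81. Of 17 tested macrophage and monocyte markers 14 were lower in the knockout (median -1.07), and Timd4 was not well above background. Their summed level was 164.6 to 175.6 in wild type and 196.3 to 216.3 in the knockout, of which Ly6c1 made 103.4 to 103.7 and 135.3 to 152.5. Without Ly6c1, a sum taken after its values were seen, the levels were 61.15 to 71.99 and 60.98 to 63.79. Of 9 tested mast cell and basophil markers 8 were lower (median -1.35), the sums being 64.35 to 72.11 and 24.39 to 46.12, with Tpsb2 and Cma1 not well above background. Of 10 dendritic cell markers 8 were lower, with sums of 174.6 to 188.6 and 123.8 to 184.3. Eosinophil marker sums ran from 15 to 67.73 in wild type and 27.26 to 38.45 in the knockout, and megakaryocyte sums from 4.175 to 10.42 and 2.67 to 3.376. Of the megakaryocyte sums Pf4 made 3.267 to 9.292 and 1.898 to 2.585. Among the 6 megakaryocyte markers 3 were higher in the knockout and 3 lower. The T and NK cell sums were between 18.22 and 23.58, of which Nkg7 alone made 18.15 to 23.51, and Cd3g, Klrb1c and Ncr1 were not well above background on any array. B cell sums were at most 2.997, and Pax5, Igll1 and the eosinophil marker Il5ra were likewise not well above background. The part of these cells in the values of the initiation factors was not tested, and in sorted bulk RNA fewer cells of a type and less RNA per cell cannot be told apart.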

How the data were processed

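The members and gene lists were chosen with earlier results of these data known. Cy3-labelled complementary RNA of each sample was hybridised to 1 of 4 Agilent mouse arrays of design 014868, all on 1 slide and scanned on the same day. The deposited intensity per spot was made with Agilent Feature Extraction 10.5.1.1, per the file headers, with local background removed and no scaling between arrays. The authors' deposited log2 table equals that intensity on the log2 scale plus a constant per array, within 0.01 for 99.84% of values; how it was made is not given in the sources used here. Its median is 5.03 on each array, and it served as an alternative.

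Left out were control spots and 368 spots flagged as outliers. Spots of a probe were averaged on the log2 scale, and the 75th percentile over 41174 probes was subtracted from each array. That percentile was 585.9 and 486.3 intensity units for wild type and 514.2 and 493.3 for the knockout. Between 57.6% and 63.54% of probes were well above background, and the number of arrays limits the precision. Names came from a RefSeq table (GRCm38.p6) for 26888 probes by systematic name and 98 by another accession, and from the array files for 14188. Coordinates are the files' own, in mm9.

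Genes whose probe exceeded background clearly on both arrays of 1 or both genotypes were tested with limma 3.58.1 (R 4.3.3; lmFit and eBayes, two-sided) and adjusted over all tested genes by the Benjamini-Hochberg method at 0.05. An exact permutation test of 2 against 2 arrays cannot go below p = 0.333, and none was run. The procedure was tested on simulated data, but no rate of calls for differences as small as the members' is given here. Values on every array are given for the 12 members with the smallest p, up to 4 per role group, and members below background, and for other lists the 3 genes with the smallest p are named. Atf4, Ppp1r15a and Eif4a2 were added after their values were seen. The alternatives were other scalings, normexp background correction, the deposited table, other filters, the mean over probes, an intensity trend, a replicate block and leaving out each array.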

Additional observations from a re-analysis of the deposited data

How the results depend on the processing

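No initiation factor passed the adjusted p of 0.05 in any of 16 alternatives (smallest adjusted p 0.18 to 0.772), and 21 of 48 kept their sign in all of them, Eif1a, Eif4b and Eif4e3 among them. With the replicate number as a block, 0 initiation factors passed (smallest limma adjusted p 0.311, 3 with an unadjusted p under 0.05), and 0 of all genes. The shared numbers were not taken to pair the samples, since 2 pairs are too few to tell.

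Spike-in scaling gave initiation factors a median of -0.15, with 3 above and 20 below. The other translation genes had -0.0449, with 6 above and 13 below. Of all tested genes, 16.7% were above and 28.2% below. The median of all genes was -0.0655 and 4 of all genes passed. With normexp the median of the initiation factors was 0.00138 and 5 of all genes passed. With quantile normalization 6 initiation factors were above and 17 below, where 26.4% and 21.7% of all tested genes were. With normexp and quantile normalization 5 initiation factors were above and 18 below, where 25.4% and 21.7% of all tested genes were. With no filter on dim probes the median of all genes was -0.0701. Like the main scaling, spike-in scaling subtracts 1 constant per array. Its shift is therefore the same for every gene read on all 4 arrays. The fit with no filter covered 28512 genes in place of 16785. What lies behind the shifts was not tested further. With 1 array left out, the median of the initiation factors was -0.11 to 0.0158, with 10 to 19 above and 14 to 25 below, and the other translation genes had a median of 0.0215 to 0.14, with 16 to 26 above, 12 to 15 below and 32 to 42 intervals within 2-fold. The count of all genes passed was 0 to 339. With 1 array left out, 39.1% to 43.5% of all tested genes were above and 27.1% to 37.2% below. The lone array left in a genotype is assumed to vary like the others.

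Signs turned in 27 initiation factors, the largest main difference being 0.272 in size (Eif4a2), and in Gspt1 and Gspt2. The turned values were, under quantile normalization, Eif2s2 -0.0409, Eif3e -0.0471, Eif3g -0.0643, Eif4g2 -0.0322, Eif4h -0.0465 and Eif5a -0.11. Under spike-in scaling they were Eif1ad -0.0581, Eif2s2 -0.0766, Eif2b5 -0.0743, Eif2ak1 -0.0102, Eif2ak3 -0.0116, Eif3e -0.0953, Eif3g -0.0618, Eif4e2 -0.024, Eif4g2 -0.0918, Eif4h -0.054, Eif4ebp1 -0.0224, Eif5a -0.0791 and Eif5a2 -0.0137. With normexp they were Eif1 0.00699, Eif2b2 0.00988, Eif2ak4 0.0104, Eif3e -0.00423 and Eif4e 0.0443. With normexp and quantile normalization they were Eif1ad -0.031, Eif2s2 -0.0105, Eif2ak3 -0.000559, Eif2ak4 0.016, Eif3e -0.0856, Eif3g -0.0114, Eif4e 0.00962, Eif4h -0.0116, Eif5a -0.000636 and Gspt2 0.00555. The mean over a gene's probes gave Eif1ax 0.20, Eif3d 0.15, Eif4e2 -0.00202, Eif4ebp1 -0.0567, Eif4enif1 0.10 and Gspt1 0.0135. Median scaling gave Eif2b2 0.0147, the deposited table Eif1 0.00243 and Eif2b2 0.0189, and the percentile of probes detected on all arrays Eif3e -0.00845 and Eif4g2 -0.00499. With 1 array left out the ranges were Eif1 -0.18 to 0.14, Eif1ad -0.13 to 0.21, Eif2a -0.0431 to 0.25, Eif2ak4 -0.16 to 0.0763, Eif2b1 -0.20 to 0.0214, Eif2b2 -0.11 to 0.10, Eif2b5 -0.18 to 0.23, Eif2s2 -0.13 to 0.18, Eif3c -0.15 to 0.0126, Eif3e -0.0787 to 0.0834, Eif3g -0.0761 to 0.15, Eif3i -0.23 to 0.0167, Eif4a1 -0.17 to 0.0358, Eif4a2 -0.60 to 0.0579, Eif4e2 -0.0447 to 0.19, Eif4e -0.17 to 0.0189, Eif4ebp1 -0.17 to 0.32, Eif4ebp3 -0.21 to 0.0104, Eif4enif1 -0.12 to 0.00474, Eif4g2 -0.0933 to 0.10, Eif4h -0.053 to 0.14, Eif5a -0.0987 to 0.14 and Gspt2 -0.51 to 0.33.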
